A study of Mus musculus with 10 samples.

Results

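The large olfactory receptor gene clusters of mouse chromosomes 2, 7 and 9 were examined for open chromatin in 4 cell types. Members are the sites of 4 deposited lists of FAIRE-seq sites whose midpoint lies in chr2:85000000-90000000, chr7:109600000-115500000 or chr9:37600000-40000000 on build mm9, which span 5, 5.9 and 2.4 Mb. These are 3275 of the 1816946 sites of the 4 lists. By list, they are 675 of 441855 sites in embryonic stem cells (ESC), 666 of 387312 in epiblast stem cells (EpiSC), 960 of 555868 in neural stem cells (NSC) and 974 of 431911 in embryonic fibroblasts (MEF). The rest of chromosomes 2, 7 and 9, 436 Mb from the first to the last site of any list, held 344651 sites and is the comparison throughout.

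FAIRE-seq sequences the DNA that stays in the aqueous phase when crosslinked, sheared chromatin is extracted with phenol and chloroform, which is DNA poor in nucleosomes. ESC were the E14 line in serum-free N2/B27 medium with LIF and inhibitors of MEK and GSK3. EpiSC were the E3 line, kept with FGF2 in conditioned medium on fibroblast feeders treated with mitomycin and moved to fibronectin without feeders before crosslinking. NSC were neural progenitors made from ES cells and grown with the growth factors EGF and FGF2. MEF were fibroblasts of midgestation embryos grown in serum. The labels give 10 samples in 5 groups of 2, the fifth group being sheared genomic DNA, and each cell type is represented here by 1 list of sites. The other 6 samples were not analysed here. A single list gives no replicate spread, so cell types were not tested against each other. Read depth is unknown, and all intervals below are exact 95% intervals that cover counting error only. The source label of the MEF samples speaks of NSC chromatin; they are called MEF here after their title and stated cell type.

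Olfactory receptors are G protein-coupled receptors that bind odorants on the sensory neurons of the nose. Their genes form the largest gene family of the mouse and lie in tandem arrays, mostly in regions of high A and T content. Each sensory neuron transcribes a single allele of a single receptor gene, and in other tissues nearly all of these genes are silent. The beta-globin genes, which encode chains of haemoglobin, lie within the array on chromosome 7.

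The deposited lists give no gene names, so the content of the clusters was read from the order of genes in RefSeq (assembly GRCm38.p6), a build other than mm9. Where any gene lies relative to the mm9 sites was therefore not determined. On chromosome 2 the main run of receptor genes held 293 Olfr genes (222 coding) between Lrrc55 and Ptprj, with 3 other coding genes inside it: Fads2b, Pramel7 and Pramel6. On chromosome 9 the run held 126 Olfr genes (95 coding), also with 3 other coding genes, Vwa5a, AW551984 and Tmem225. The run on chromosome 7 was mixed, with 238 Olfr genes (193 coding) and 55 other coding genes between Rrm1 and Nlrp10. The globin genes Hbb-bt, Hbb-bs, Hbb-bh2, Hbb-bh1 and Hbb-y followed the first 93 Olfr genes of that run, and a block of Trim genes, which encode ring-finger ubiquitin ligases, followed the first 116. A group that followed the first 158 Olfr genes included Smpd1 (acid sphingomyelinase), Ilk (integrin-linked kinase), Taf10 (a subunit of the transcription factor TFIID), Tpp1 (a lysosomal peptidase), Dchs1 (a cadherin) and Mrpl17 (a protein of the mitochondrial ribosome). Syt9, a synaptotagmin, and Ppfibp2 followed the first 186. Chromosomes 2, 7 and 9 carry 377, 294 and 178 Olfr genes in all, so some lie outside these runs. The rest used for comparison was not cleared of them.

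The promoters of these receptor genes are shown first because most CpG-rich promoters, unlike CpG-poor ones, are open in many cell types. Whether promoter composition bears on the density of sites given below was not tested. RefSeq promoter windows of 300 bases, of which the gene model starts at base 251, were at hand for 435 of the 510 coding Olfr genes of the runs. Their median GC content was 34%, against 57% for 3748 other coding genes of the same chromosomes, all Olfr genes left out. They held a median of 1 CG dinucleotide, against 14 in the other genes, and 35.4% held none, against 3.44% of the others. Windows with 10 or more CG made up 0% of the receptor windows and 60.5% of the other genes' windows. In 72.0% of the receptor windows base 251 opens an ATG, so that the gene model starts at its coding start and the transcription start lies elsewhere. The composition was close to this in the 122 receptor windows without such an ATG, with a median GC content of 35% and a median of 1 CG. The example printed for each chromosome is the gene in the middle of the order among those 122. Sequences run 5′ to 3′ on the strand of the gene and come from RefSeq GRCm38.p6, with the CG dinucleotide in capitals.
Olfr1161 (chromosome 2, plus strand): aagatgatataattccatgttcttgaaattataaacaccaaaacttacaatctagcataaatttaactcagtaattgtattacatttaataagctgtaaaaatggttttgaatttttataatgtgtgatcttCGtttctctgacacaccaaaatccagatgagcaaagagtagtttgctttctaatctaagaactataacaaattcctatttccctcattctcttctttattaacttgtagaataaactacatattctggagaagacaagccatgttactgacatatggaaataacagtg
Olfr64 (chromosome 7, minus strand): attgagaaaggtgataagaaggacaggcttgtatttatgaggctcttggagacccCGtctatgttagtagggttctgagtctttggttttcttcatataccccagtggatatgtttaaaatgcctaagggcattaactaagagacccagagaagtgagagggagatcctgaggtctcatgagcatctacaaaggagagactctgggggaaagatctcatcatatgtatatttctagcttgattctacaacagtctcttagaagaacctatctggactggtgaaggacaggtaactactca
Olfr920 (chromosome 9, plus strand): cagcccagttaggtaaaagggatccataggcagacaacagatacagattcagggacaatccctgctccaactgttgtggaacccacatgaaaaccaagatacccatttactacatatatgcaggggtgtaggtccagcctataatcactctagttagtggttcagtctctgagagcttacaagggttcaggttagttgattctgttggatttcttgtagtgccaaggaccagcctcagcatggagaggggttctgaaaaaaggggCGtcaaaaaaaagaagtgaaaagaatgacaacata
Each of the 3 windows holds 1 CG, and their GC contents are 29%, 42.3% and 44.3% in the order shown. Sequences of the sites themselves are not given, since no mm9 genome was used here.

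The clusters were poor in sites in every cell type. ESC had 50.8 sites per Mb in the clusters (interval 47.0 to 54.7) and 200 per Mb in the rest of the chromosomes, a ratio of 0.254 (0.235 to 0.274). EpiSC had 50.1 sites per Mb in the clusters (46.3 to 54.0) and 163 in the rest, a ratio of 0.308 (0.285 to 0.332). NSC had 72.2 sites per Mb (67.7 to 76.9) against 238, a ratio of 0.303 (0.284 to 0.323), close to that of EpiSC. MEF had 73.2 per Mb (68.7 to 78.0) against 190 and the highest ratio, 0.385 (0.361 to 0.410). Relative to their own list, ESC thus had the fewest sites in the clusters and MEF the most, and no interval of these ratios reached 1.

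Counted in bases, the difference was larger, because sites in the clusters were also narrower. Sites covered 2.01% of the clusters in ESC, against 10.3% of the rest. In EpiSC they covered 1.67% against 7.40%, in NSC 2.50% against 10.9%, and in MEF 2.41% against 7.60%. The share of the clusters covered was thus 0.194, 0.226, 0.230 and 0.318 times that of the rest in the order of cell types above.

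The 3 clusters differed among themselves. The chromosome 7 cluster, whose gene order is the mixed one, held the most sites per Mb: ESC had 78.5, EpiSC 62.5, NSC 86.9 and MEF 82.0, which were 0.428, 0.530, 0.415 and 0.519 times the density of the rest of chromosome 7. The rest of that chromosome was itself sparse in EpiSC, with 118 sites per Mb, against 179 on chromosome 2 and 193 on chromosome 9. Against all other autosomes the EpiSC ratio of the chromosome 7 cluster was 0.389 in place of 0.530. The chromosome 2 cluster held 26.8, 39.6, 58.8 and 60.4 sites per Mb in ESC, EpiSC, NSC and MEF, with ratios of 0.134 (0.112 to 0.158), 0.222 (0.192 to 0.255), 0.245 (0.218 to 0.275) and 0.303 (0.269 to 0.339). The chromosome 9 cluster was close to it in the first 3 cell types, with ratios of 0.149 (0.118 to 0.186), 0.214 (0.174 to 0.260) and 0.236 (0.200 to 0.277), and MEF had 0.365 (0.314 to 0.421). In these 2 clusters the ratio was lowest in ESC and highest in MEF, although some neighbours in that order overlapped in their intervals. On chromosome 7 the interval of ESC (0.390 to 0.469) overlapped that of NSC (0.380 to 0.453) and lay below that of MEF (0.473 to 0.567). The intervals of ESC and MEF overlapped there with the highest-scoring 50% of each list (0.365 to 0.477 and 0.471 to 0.606), with lists of equal length (0.405 to 0.492 and 0.488 to 0.590) and against all other autosomes (0.400 to 0.481 and 0.432 to 0.517).

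**Figure D1:**
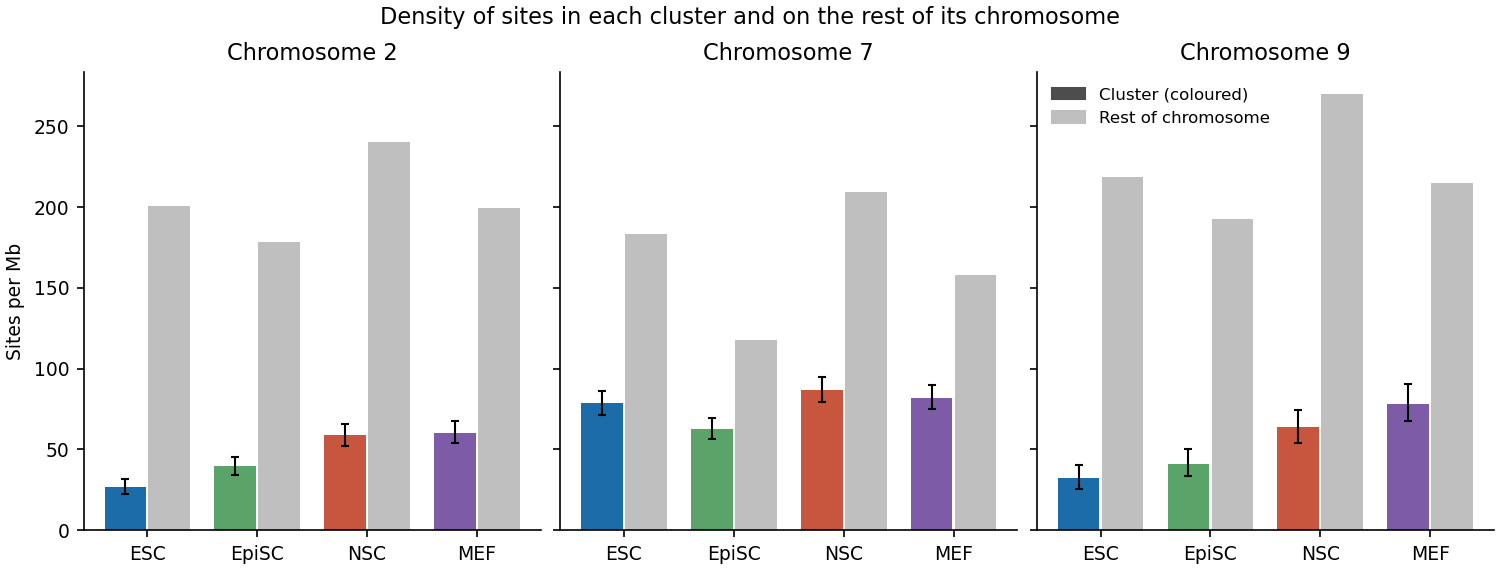
Sites per Mb (vertical axis) in each olfactory receptor cluster (coloured bars, with exact 95% Poisson intervals) and on the rest of its chromosome (grey bars) for the 4 cell types. Every coloured bar is below its grey bar, and the gap is smallest on chromosome 7, where the cluster held 62.5 to 86.9 sites per Mb.

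The clusters were also set beside stretches of the same length elsewhere on their chromosomes. The chromosome 9 cluster had fewer sites than each of the 49 other stretches of 2.4 Mb in all 4 lists, with 78 ESC, 99 EpiSC, 153 NSC and 188 MEF sites, where the poorest other stretch had 82, 176, 242 and 190. Of 34 other stretches of 5 Mb on chromosome 2, 1 was poorer than the cluster in each of the ESC, EpiSC and MEF lists, and 0 in the NSC list. The poorer stretch was chr2:95000002-100000002 in ESC and EpiSC and chr2:175000018-180000018 in MEF. The latter includes 1853 kb without a site of any list. The chromosome 7 cluster was not at the extreme, with 7, 6, 4 and 5 of 24 stretches of 5.9 Mb poorer than it in ESC, EpiSC, NSC and MEF. Chromosome 7 holds long stretches without a site of any list, the longest of 7089 kb, and such stretches lower the density of its rest.

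Along the clusters, sites were uneven. In windows of 100 kb the median number of sites in the clusters was 2 for ESC, 4 for EpiSC, 5 for NSC and 6 for MEF, against 15, 15, 22 and 18 in the 4362 windows of the rest. Of the 133 windows of the clusters, 26 had no ESC site (19.5%, interval 13.2 to 27.3), against 9.15% of windows in the rest. The excess lay on chromosome 2, with 26.0% against 5.70%, while it was 18.6% against 18.0% on chromosome 7 and 8.33% (2 windows) against 3.45% on chromosome 9. In the other lists empty windows made up 5.26% against 7.29% for EpiSC, 3.01% against 5.50% for NSC and 3.76% against 5.59% for MEF. These pooled shares rest on chromosome 7, whose rest holds the long site-free stretches: there they were 8.47% against 18.6% for EpiSC, 6.78% against 14% for NSC and 8.47% against 14.3% for MEF. On chromosome 2 EpiSC had 2 empty windows of 50 (4% against 2.53%), and NSC and MEF had 0, which allows up to 7.11%, against 1.90% in the rest. On chromosome 9 none of the 24 windows was empty in EpiSC, NSC or MEF, which allows up to 14.2%.

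**Figure D2:**
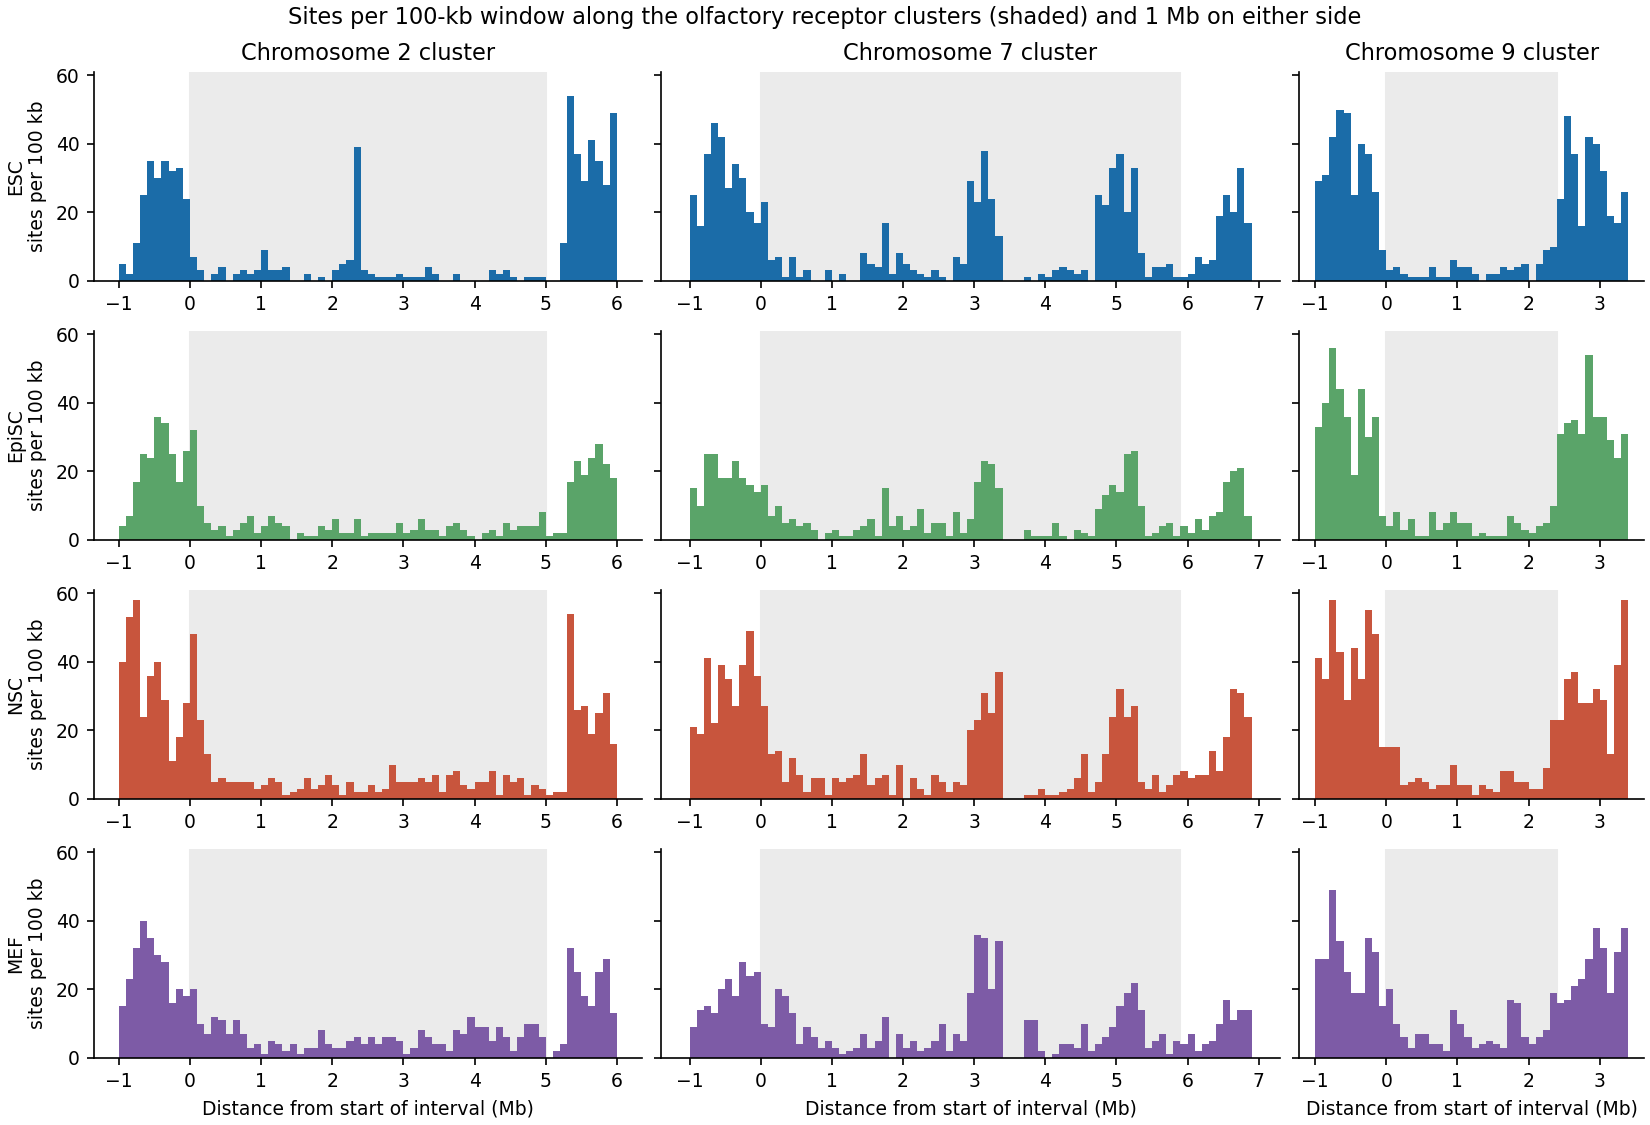
Number of sites per 100-kb window (vertical axis) against distance from the start of the interval in Mb (horizontal axis), with the olfactory receptor intervals shaded and 1 Mb shown on either side, 1 row per cell type and 1 column per chromosome. Within the shading most windows are low, and a few stretches rise to the level of the flanks, among them 2 of 500 kb on chromosome 7 in all lists and 1 window of chromosome 2 in ESC.

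A small number of windows held much of what was there. Windows with 50 or more sites of the 4 lists together, a limit chosen after the values were seen, are called dense here. They were 16 of the 133 windows of the clusters (12.0%) and 3093 of the 4362 windows of the rest (70.9%). These 16 windows held 55.6% of the ESC sites of the clusters, 39.9% of the EpiSC sites, 39.3% of the NSC sites and 31.0% of the MEF sites. The dense windows of the rest held 82979 of 87079 ESC, 65419 of 70869 EpiSC, 94634 of 103842 NSC and 72805 of 82861 MEF sites. Those shares were higher than in the clusters, and also highest in ESC and lowest in MEF. Of the 16, 13 lay on chromosome 7.

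On chromosome 7 the dense windows formed 2 stretches of 500 kb. The first, chr7:112500001-113000000, held 127 ESC, 83 EpiSC, 136 NSC and 144 MEF sites, or 254, 166, 272 and 288 per Mb. The second, chr7:114400001-114900000, held 145 ESC, 94 EpiSC, 120 NSC and 71 MEF sites, or 290, 188, 240 and 142 per Mb. ESC, EpiSC and NSC thus had like numbers in both stretches, while MEF had 144 sites in the first and 71 in the second. The single windows chr7:109600001-109700000, chr7:109800001-109900000 and chr7:111300001-111400000 were also dense, with 76, 51 and 51 sites of the 4 lists together. The window with the most sites in all lists together, chr7:112700001-112800000, held 38 ESC, 23 EpiSC, 31 NSC and 35 MEF sites.

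The first dense stretch ended in the longest gap of the clusters. No list had a site in chr7:112972853-113378972, 406 kb. The 100-kb window in which this gap begins, chr7:112900001-113000000, nevertheless held 13 ESC, 15 EpiSC, 37 NSC and 34 MEF sites. Whether reads can be placed in that gap was not tested. On its far side the MEF list resumed with the highest-scoring MEF site of the chromosome 7 cluster, chr7:113378973-113380447 (score 17.0, at the 99.9th percentile of its list), which overlapped no site of another list. A run of 10 MEF sites followed at chr7:113390663-113405874, where ESC had 1 site, EpiSC 4 and NSC 0. The longest gaps of all 4 lists together were far shorter in the other clusters, 50.6 kb at chr2:87683608-87734208 and 47.0 kb at chr9:38834617-38881592. In ESC alone, gaps on chromosome 2 were longer, up to 457 kb at chr2:88789463-89246695, where the longest gap was 236 kb in EpiSC, 141 kb in NSC and 122 kb in MEF.

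The chromosome 2 cluster had 1 stretch in which ESC stood apart. The window chr2:87300001-87400000 held 39 ESC sites, against 6 EpiSC, 2 NSC and 6 MEF sites, and these 39 were 39 of the 134 ESC sites of the whole cluster. Within it, 24 ESC sites followed each other with gaps of at most 5 kb over 28.0 kb, chr2:87319822-87347799, and covered 36.8% of its bases. Their median score was 4.94, or 1.43 times the median of the ESC list, and the highest, 12.7 at chr2:87326079-87326684, was also the highest ESC score in the chromosome 2 cluster. In the same 28.0 kb EpiSC had 3 sites with scores up to 6.21, MEF had 1 site with a score of 1.83, and NSC had 0. The widest site of the chromosome 2 cluster, chr2:87355778-87357741 (1964 bp, ESC score 11.1), lay just beyond the run and overlapped no other list. In RefSeq order the only coding genes other than receptors in the middle of the chromosome 2 run are Pramel7 and Pramel6, members of the PRAME-like family that are transcribed in mouse ESC and early embryos, after the first 138 of 293 Olfr genes. Whether the ESC run lies at them was not determined.

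**Figure D3:**
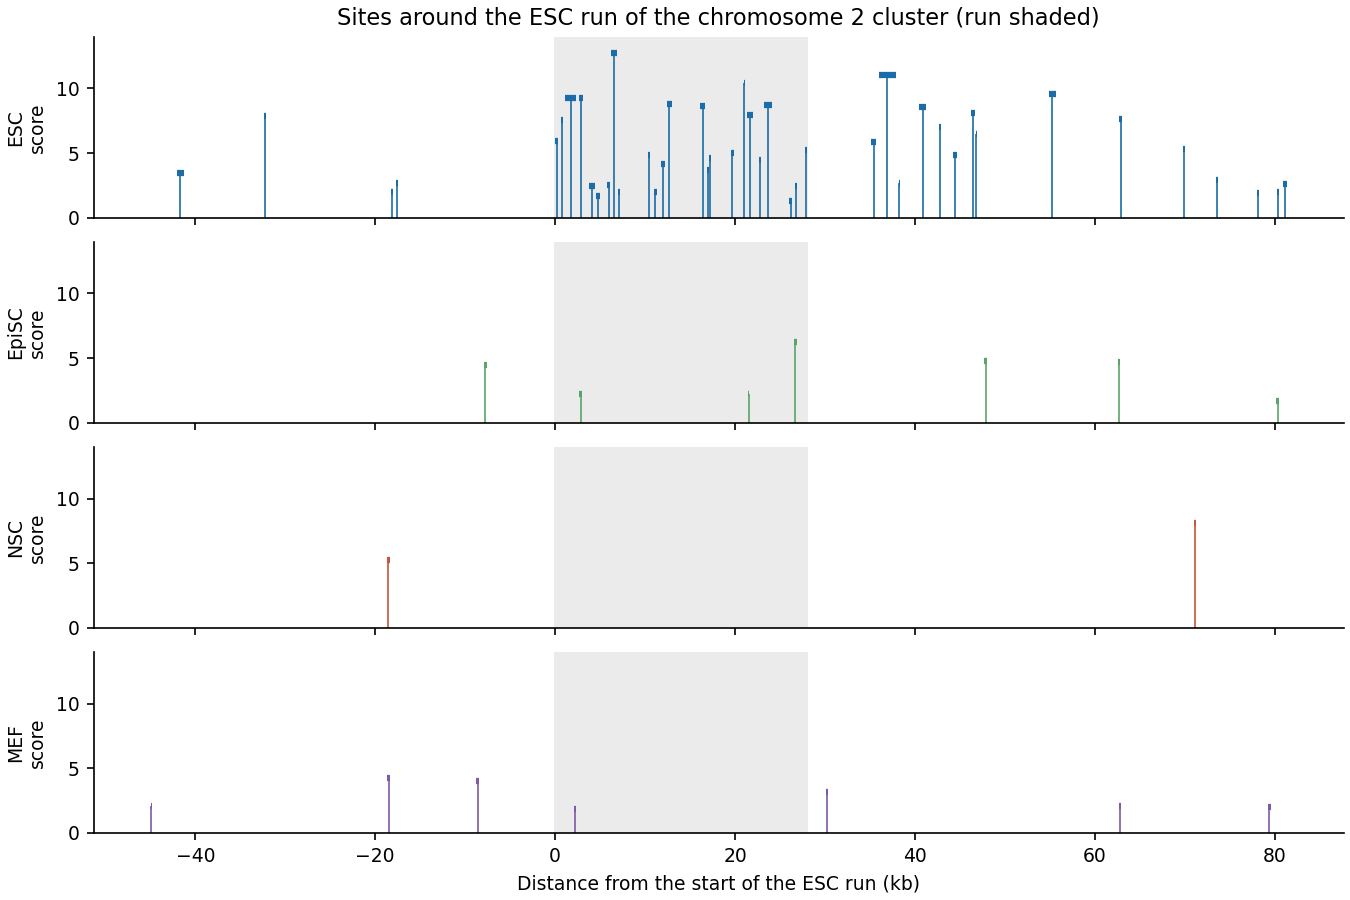
Sites of the 4 lists around the ESC run of the chromosome 2 cluster (shaded), by distance from its start in kb (horizontal axis) and score within their own list (vertical axis), the thick top of each line showing the width of the site. ESC had 24 sites in the shaded 28.0 kb, against 3 in EpiSC, 0 in NSC and 1 in MEF.

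The start of the chromosome 2 interval carried the other dense window of that cluster, and there the order of cell types was another one. The window chr2:85000001-85100000 held 48 NSC and 32 EpiSC sites, with 20 in MEF and 7 in ESC. NSC sites formed 3 runs of 10 or more sites there and just beyond it: 16 sites at chr2:85000287-85021248, 21 at chr2:85063552-85093424 and 11 at chr2:85114728-85129329. In the third of these ESC had 0 sites, EpiSC 4 and MEF 1, and it held the highest EpiSC score of the cluster, 13.0 at chr2:85124835-85125112. These runs and the ESC run were the only runs of that kind in the chromosome 2 cluster, and the chromosome 9 cluster had none in any list.

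Each list had fewer sites in the 500 kb inside each limit than in the 500 kb outside it, but the size of the step varied. In the 500 kb inside and outside the start of the chromosome 9 interval there were 11 and 137 ESC sites, 22 and 136 EpiSC sites, 45 and 197 NSC sites and 46 and 119 MEF sites. At the end of the chromosome 9 interval there were 29 and 167 ESC, 24 and 185 EpiSC, 43 and 151 NSC and 43 and 106 MEF sites, and at the start of the chromosome 7 interval 44 and 128 ESC, 44 and 89 EpiSC, 71 and 186 NSC and 70 and 118 MEF sites. At the end of the chromosome 2 interval there were 4 and 102 ESC sites, 23 and 45 EpiSC sites, 19 and 85 NSC sites and 34 and 63 MEF sites inside and outside. The last site inside that limit was 14.4 kb from it (MEF, chr2:89985551-89985699, score 3.63) and the first beyond it 95.7 kb away (NSC, chr2:90095631-90095842, score 5.22), so the sparse stretch ran past the limit. The end of the chromosome 7 interval showed a small step, with 15 and 21 ESC, 13 and 22 EpiSC, 23 and 42 NSC and 21 and 22 MEF sites inside and outside. The last site inside it was an NSC site at chr7:115493672-115493787 (score 6.59), and the first outside a MEF site at chr7:115502147-115502414 (score 2.20). At the start of the chromosome 2 interval the limit fell within a populated stretch, and the step was large in ESC (16 inside and 154 outside) and smaller in EpiSC (54 and 138), NSC (95 and 126) and MEF (60 and 112). The nearest sites there were an NSC site at chr2:85000287-85000605 (score 2.27) just inside and an EpiSC site at chr2:84999800-85000110 (score 4.22) just outside. The end of the chromosome 9 interval cut through a wide region: an ESC site at chr9:39998743-40000948 (2206 bp, score 10.6), the widest of that cluster, had its midpoint inside, and an NSC site at chr9:39998749-40001518 (2770 bp, score 6.79) had it outside. At the chromosome 7 start the nearest sites were an NSC site inside at chr7:109600498-109600781 (score 3.02) and an ESC site outside at chr7:109595830-109595984 (score 5.04). At the chromosome 9 start they were a MEF site inside at chr9:37600516-37600748 (score 3.43) and an NSC site outside at chr9:37598242-37598358 (score 6.77).

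In the 117 windows of the clusters that were not dense, the cell types fell into an order. ESC had 25.6 sites per Mb there, EpiSC 34.2, NSC 49.8 and MEF 57.4. The order was the same in each cluster: 18.3, 33.3, 50.8 and 57.5 per Mb on chromosome 2, 31.3, 32.8, 45.4 and 49.3 on chromosome 7, and 29.6, 38.7, 56.5 and 73.5 on chromosome 9. The intervals of NSC and MEF overlapped in each cluster, those of ESC and EpiSC on chromosomes 7 and 9, and those of EpiSC and NSC on chromosome 9. The order was not particular to the receptor clusters, since the 1269 windows of the rest with under 50 sites had 32.3 ESC, 42.9 EpiSC, 72.6 NSC and 79.2 MEF sites per Mb. The clusters' windows held 0.794, 0.796, 0.687 and 0.725 times those densities. Windows without a site of any list were 3 of the 117 in the clusters and 186 of the 1269 in the rest. They lower the density of the rest more than that of the clusters, and so raise these ratios. In the dense windows of the clusters the order was another one, with 234 ESC, 166 EpiSC, 236 NSC and 189 MEF sites per Mb. The part of list length and depth in these orders was not tested.

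**Figure D4:**
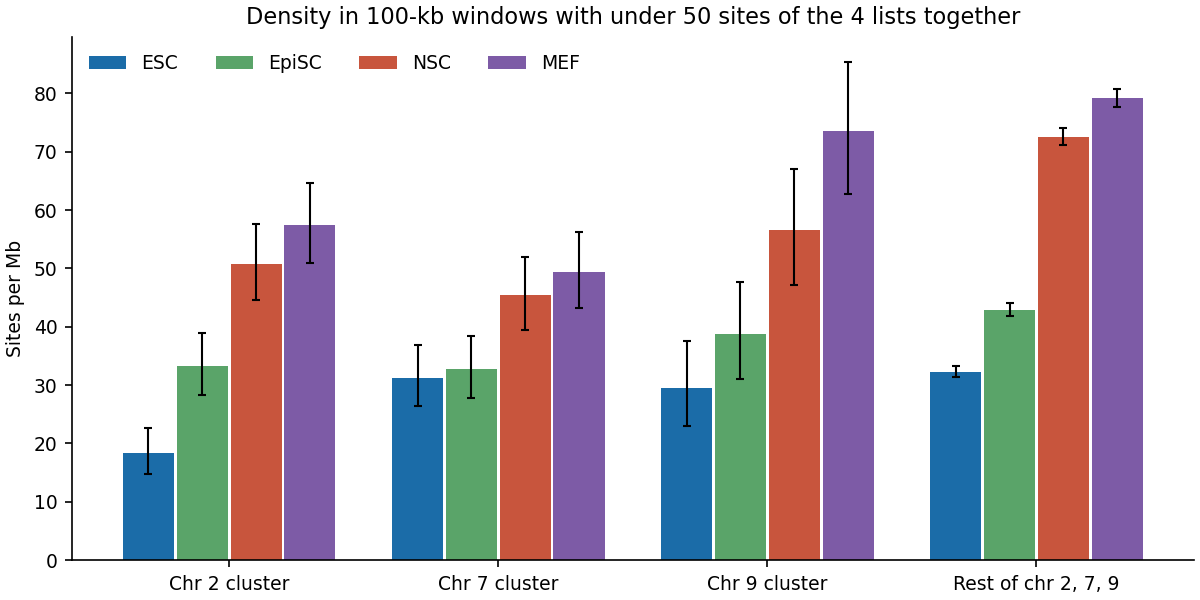
Sites per Mb (vertical axis) in the 100-kb windows with under 50 sites of the 4 lists together, for each olfactory receptor cluster and for the rest of chromosomes 2, 7 and 9, with exact 95% Poisson intervals. In all 4 places density increases in the order ESC, EpiSC, NSC, MEF, by the least between ESC and EpiSC on chromosome 7.

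Sites in the clusters were narrower than elsewhere. Their median width was 298 bp for ESC, 283 bp for EpiSC and 281 bp for both NSC and MEF, against 376, 343, 339 and 329 bp in the rest. Sites of 2000 bp or more made up 0.593% of ESC sites in the clusters (4 sites), against 1.79% in the rest, and numbered 1 in EpiSC, 5 in NSC and 1 in MEF. Density and width went together: in the clusters' own dense windows the medians were 352, 338, 344 and 335 bp in ESC, EpiSC, NSC and MEF, and in the other windows 261, 259, 257 and 262 bp. The windows of the rest with under 50 sites had medians of 275, 277, 269 and 278 bp.

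Scores, the authors' own values, had medians in the clusters close to those elsewhere. Compared within each list, the median score for ESC was 3.32 in the clusters and 3.45 in the rest. It was 3.05 and 2.80 for EpiSC, 4.08 and 3.87 for NSC, and 3.63 and 3.39 for MEF. The share of cluster sites at or above the 95th percentile of the list was 5.19% (interval 3.64 to 7.14) in ESC, against 5.16% in the rest. It was 5.71% (4.07 to 7.75) against 3.92% in EpiSC, 2.92% (1.95 to 4.19) against 4.40% in NSC and 4.41% (3.21 to 5.90) against 5.62% in MEF. Over the clusters together, that share was thus below the rest for NSC and above it for EpiSC by more than counting error. This was narrow for EpiSC and did not hold for ESC and MEF. By cluster, the EpiSC interval excluded the rest on chromosome 7 only, with 4.61% (2.71 to 7.27) against 2.13%. The NSC interval covered the rest in each cluster, and the NSC median was higher over the clusters together. On chromosome 7 the NSC median was lower, 3.855 in the cluster against 3.956 in the rest. The highest score was lower in the clusters in each list, 22.4 against 31.0 for ESC, 14.3 against 40.1 for EpiSC, 26.3 against 36.3 for NSC and 17.6 against 34.8 for MEF, with far fewer sites in the clusters.

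The named sites, the highest-scoring of each list and cluster and the widest, differed in width and sharing. Of those in the first dense stretch of chromosome 7, the highest ESC site of the chromosome 7 cluster, chr7:112751682-112752839 (1158 bp, score 22.4, rank 107 of its list), overlapped sites of the other 3 lists, and the widest site of all, chr7:112787765-112791110 (NSC, 3346 bp, score 8.21), did so too. Most of the others were narrower. The highest MEF site of the chromosome 2 cluster, chr2:88196509-88196736 (228 bp, score 17.6, rank 228 of its list), overlapped an NSC site only, and the highest NSC site there, chr2:89456100-89456435 (336 bp, score 18.9), overlapped none. On chromosome 7 the highest NSC site was chr7:114923246-114923441 (196 bp, score 26.3), which ESC and EpiSC shared, and the highest EpiSC site chr7:111463489-111463619 (131 bp, score 14.3), which no list shared. On chromosome 9 the highest sites of ESC (chr9:38640585-38640977, score 12.8), EpiSC (chr9:38207528-38207704, score 13.3) and NSC (chr9:39974052-39974350, score 22.1) were in no other list. The highest MEF site there, chr9:38525667-38526135 (score 15.5), was shared with EpiSC and NSC. Of the 12 highest sites, 7 overlapped no site of another list, a share within the range over all cluster sites (53.0% to 70.3% by list).

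A smaller share of cluster sites than of sites elsewhere overlapped another list, although the clusters are also less covered by sites. A site counted as shared if it overlapped a site of another list by at least 1 bp. Among ESC sites 58.2% (interval 54.4 to 62.0) were in no other list, against 40.1% in the rest. The shares were 53.0% (49.1 to 56.8) against 28.8% in EpiSC, 65.1% (62.0 to 68.1) against 45.2% in NSC and 70.3% (67.4 to 73.2) against 40.0% in MEF. The chromosome 2 cluster had the highest share of the 3 clusters in each list. In ESC it was 76.9%, against 52.5% in the chromosome 7 cluster and 60.3% in the chromosome 9 cluster. The rest of chromosomes 2, 7 and 9 had 40.5%, 42.0% and 37.6% in ESC. In the chromosome 2 cluster and the rest of that chromosome the shares were 66.7% and 30.3% for EpiSC, 76.9% and 46.0% for NSC, and 84.1% and 41.9% for MEF.

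**Figure D5:**
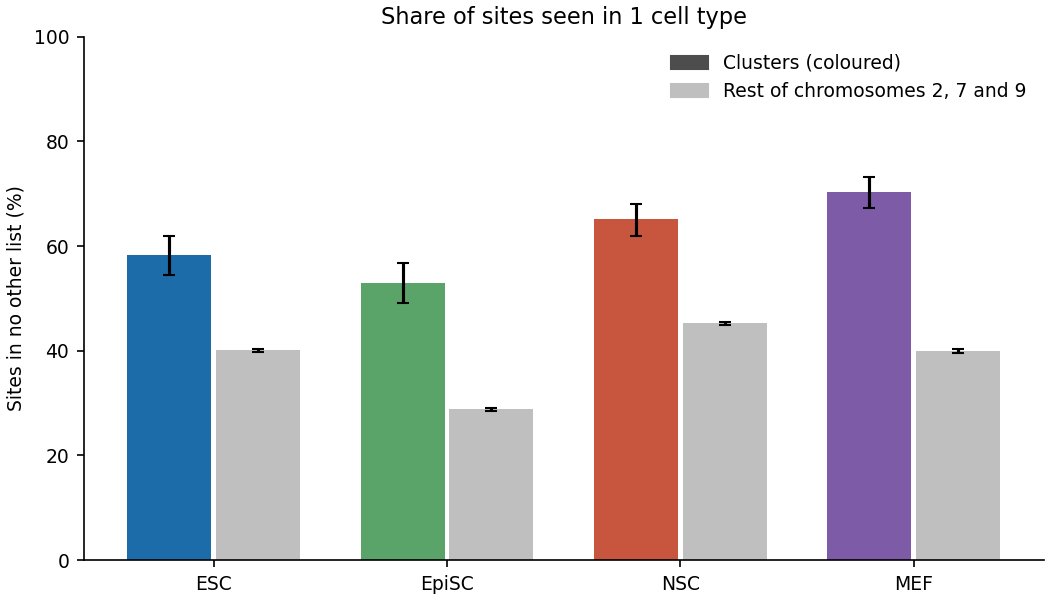
Share of sites that overlap no site of the other 3 lists, in percent (vertical axis), in the olfactory receptor clusters (coloured bars) and in the rest of chromosomes 2, 7 and 9 (grey bars), with exact 95% intervals. The share is higher in the clusters in each cell type, by the most in MEF (70.3% against 40.0%).

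Density moved with this share. In windows that were not dense, the share of ESC sites in no other list was 69.0% in the clusters and 63.3% in the rest. It was 68.5% and 61.0% for EpiSC, 79.4% and 73.6% for NSC, and 83.5% and 75.8% for MEF. In dense windows the shares were lower in both places: 49.6% and 38.9% for ESC, 29.7% and 26.1% for EpiSC, 43.0% and 42.5% for NSC, and 41.1% and 35.0% for MEF. Within the same class of windows, clusters and rest thus differed by at most 10.7 percentage points, against up to 30.3 over all windows. The share stayed higher in the clusters in each list. The excess was 5.68 (ESC) to 7.72 points (MEF) in windows that were not dense, and 0.48 (NSC) to 10.7 points (ESC) in dense ones. The classes are set by counts of the same sites that decide sharing, so a smaller difference within them is partly built in. Whether density accounts for the difference was not tested. Among sites 200 to 350 bp wide, chosen because cluster sites were narrower, the shares were 61.8% in the clusters and 45.5% in the rest for ESC, 58.7% and 36.2% for EpiSC, 73.7% and 54.3% for NSC, and 76.2% and 47.4% for MEF.

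Merged over the 4 lists, the cluster sites gave 2536 regions, of which 81.1% were in 1 list, against 64.5% of regions in the rest. MEF alone accounted for 685 of the cluster regions (27.0%, against 15.8% in the rest) and EpiSC alone for 353 (13.9% against 9.72%). The shares were closer for NSC alone, with 625 (24.6% against 22.4%), and for ESC alone, with 393 (15.5% against 16.6%). The most frequent pairs were the same as in the rest and made up less of the regions: NSC with MEF 94 regions (3.71% against 6.70%) and ESC with EpiSC 75 (2.96% against 5.21%). Regions in all 4 lists numbered 37, or 1.46% (interval 1.03 to 2.01), against 4.57% in the rest. Of these 37, 34 lay on chromosome 7 and 33 in dense windows. The widest were chr7:112957058-112960732 (3675 bp), chr7:112780261-112783913 (3653 bp), chr7:112627945-112631459 (3515 bp) and chr7:112787765-112791110 (3346 bp), all in the first dense stretch, and chr7:114808064-114810962 (2899 bp) in the second. The chromosome 2 cluster had 1 such region in 5 Mb, chr2:85086295-85087422 (1128 bp), at its start. The chromosome 9 cluster had 2, chr9:38526246-38527511 (1266 bp) and chr9:39944294-39944780 (487 bp), of which the first lay outside the dense windows, next to the highest MEF site of that cluster.

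Set against coverage, the direction of the comparison was the opposite. Over all windows, 23.7% of the bases of ESC sites in the clusters also lay in an EpiSC site, while EpiSC sites covered 1.67% of the clusters, so that the share was 14.2 times the coverage, against 4.40 times in the rest. This quotient was higher in the clusters for the other 5 pairs too, at 6.29 to 8.74 against 2.35 to 3.25. Within the windows that were not dense, the quotient was higher in the clusters for some pairs and lower for others. There, 15.4% of the bases of ESC sites also lay in an EpiSC site, while EpiSC sites covered 0.953% of the windows, so that the share was 16.1 times the coverage. The same quotient was 15.9 in the windows of the rest that were not dense. It was 6.26 in the clusters and 4.95 in the rest for ESC with NSC, and 6.74 and 5.43 for EpiSC with NSC. For NSC with MEF it was 5.47 and 5.04, for ESC with MEF 3.93 and 4.04, and for EpiSC with MEF 4.58 and 4.85. Of these windows, 3 of 117 in the clusters and 186 of 1269 in the rest held no site of any list. Such windows lower the coverage and so raise the quotient, more in the rest. The quotient without them was not computed, so the direction for ESC with MEF and for EpiSC with MEF is not settled here. The quotient describes these lists and is not a test.

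Site counts per window followed the same pairing only in part. Over the 133 windows of the clusters, which share their libraries and lie next to each other, Spearman's rho was 0.63 between ESC and EpiSC and 0.40 to 0.54 for the other pairs. In the rest it was 0.84 between ESC and EpiSC, 0.71 between NSC and MEF and 0.36 to 0.50 for the other pairs. On chromosome 7, where the dense stretches are shared by all lists, rho was 0.80 between ESC and EpiSC and 0.64 to 0.69 for the others. On chromosome 9 it was 0.41 to 0.65. On chromosome 2 it was 0.03 between ESC and NSC, -0.03 between ESC and MEF and 0.16 to 0.40 for the others. In the 117 windows of the clusters that were not dense, rho was 0.48 between ESC and EpiSC and 0.19 to 0.37 for the others. Windows of the clusters held a median of 2 to 6 sites by list, against 15 to 22 in the rest. The part of such low counts in rho was not tested.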

How the data were processed

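The deposited lists give the chromosome, start, end, a score and a display value of each site; the score in the deposited lists is the authors' own, and the display value equals 100 times it, capped at 1000, to within 1. CASAVA 1.8 and build mm9 are named in the submitters' processing notes. The sources used here give no aligner, threshold, use of the genomic control, pooling or scale of the score, so scores were compared within a list only. Read depth is unknown, and a deeper library could give a longer list.

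Coordinates, 0-based in the lists, are printed 1-based. Sites were assigned to intervals and to windows of 100 kb by midpoint. Density is sites per Mb, with exact Poisson intervals; shares and density ratios carry exact (Clopper-Pearson) intervals. Neighbouring sites are not independent. A dense window holds 50 or more sites of the 4 lists; a run is 10 or more sites of 1 list with gaps of at most 5 kb. Sites were named by rule: the highest-scoring site per list and cluster, the widest site, the longest gaps, the windows with the most sites, the 5 widest regions in all 4 lists and the sites next to each limit. The ESC and MEF runs, the NSC runs, the dense windows and the stretches of the same length were chosen after their values were seen. The members and lists were chosen with earlier results of these data known. Receptor genes were taken as 1 run per chromosome of RefSeq gene order, with at most 30 other genes between neighbours. The work used Python 3.11.15 with scipy 1.17.1, numpy 2.4.6 and pandas 2.3.3, and matplotlib 3.10.9 for figures; counts were checked with bedtools 2.31.1 and tested on simulated data.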

Additional observations from a re-analysis of the deposited data

How the results depend on the processing

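The density ratio of clusters over rest was below 1 under every setting tried, and apart from the removal of dense windows it was 0.138 to 0.327 for ESC, 0.218 to 0.371 for EpiSC, 0.239 to 0.339 for NSC and 0.322 to 0.441 for MEF. Over all results, 82 recomputed values stayed within the counting interval of the value reported, and 85 did not. For shares, widths, scores and empty windows the clusters alone were recomputed, so a difference from the rest under those settings was not determined. The cause of the moves was not tested. No paired analysis was possible because there is 1 list per cell type, and for the same reason no replicate could be left out. Depth is unknown, so a missing site may be a site missed. The lists may have been called against a shared control, and the annotation of sites with genes was not run because no mm9 annotation was used here.

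With the 50% highest-scoring sites of each list, the ratio was 0.335 in EpiSC, 0.328 in NSC and 0.422 in MEF; by cluster it was 0.294 in NSC and 0.351 in MEF on chromosome 2, and 0.274 in EpiSC, 0.293 in NSC and 0.426 in MEF on chromosome 9. The share of sites in no other list was then 68.2% for ESC, 65.4% for EpiSC, 73.9% for NSC and 78.6% for MEF, the median width 365 bp in ESC and 274 bp in EpiSC, and the median score 5.38, 4.49, 6.10 and 5.21 in the order of cell types. Empty windows made up 38.3%, 18.8%, 8.27% and 9.77% in the same order. With lists of equal length (387312 sites), the NSC ratio was 0.332 and on chromosome 2 0.282. The share in no other list was then 62.3% for ESC, 57.2% for EpiSC, 68.5% for NSC and 73.7% for MEF, the NSC median width 268 bp, and the median score 3.57 in ESC and 4.94 in NSC.

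Against all other autosomes the ratio was 0.284 in ESC and 0.422 in MEF; by cluster it was 0.389 in EpiSC on chromosome 7, 0.348 in MEF on chromosome 2, and 0.280 in NSC and 0.452 in MEF on chromosome 9. With intervals shortened by 250 kb at both ends it was 0.282 in EpiSC and 0.266 in NSC; by cluster it was 0.174 in EpiSC and 0.193 in NSC on chromosome 2, and 0.170 in NSC and 0.309 in MEF on chromosome 9. With sites under 200 bp apart merged, the NSC ratio was 0.323.

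Without the chromosome 2 cluster the ratios were 0.327, 0.371, 0.339 and 0.441 in ESC, EpiSC, NSC and MEF, the shares in no other list 53.6%, 47.2%, 59.9% and 64.1%, and regions in all 4 lists 2.09%. Without the chromosome 7 cluster the ratios were 0.138, 0.218, 0.239 and 0.322, the shares 70.8%, 65.7%, 74.3% and 81.4%, and regions in all 4 lists 0.243%. Without the chromosome 9 cluster the ratio was 0.284 in ESC, 0.344 in EpiSC and 0.327 in NSC. With an overlap of 50% of the shorter site, the share in no other list was 57.5% in EpiSC, 70.4% in NSC and 74.9% in MEF. Windows of 50 kb were empty in 35.7%, 19.9%, 14.3% and 13.2% of cases in the order of cell types, and windows of 200 kb in 7.58% in ESC and 1.52% in EpiSC.

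Settings chosen after the data were seen were the removal of the dense windows from the clusters and a limit on width. Without the dense windows the ratios were 0.128, 0.210, 0.209 and 0.302 in ESC, EpiSC, NSC and MEF, and the shares in no other list 69.0%, 68.5%, 79.4% and 83.5%. A lower ratio is built into that setting, which takes windows from the clusters alone. With dense windows left out of both, the ratios were 0.794, 0.796, 0.687 and 0.725. Those ratios are raised by windows without a site of any list, 3 in the clusters and 186 in the rest, which were kept. Among sites 200 to 350 bp wide the share was 58.7% in EpiSC, 73.7% in NSC and 76.2% in MEF.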
